A study of Atriplex lentiformis with 8 samples.

Results

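Aquaporins are the channel proteins through which water, and in some subfamilies small neutral solutes, crosses plant membranes. Their transcripts were followed here in leaves of Atriplex lentiformis (quailbush), a salt-tolerant desert shrub, grown hot or cool. They were found by the description of the best Arabidopsis match: every transcript whose match was described as an aquaporin or as a (major) intrinsic protein was taken, whatever its level. That gave 39 of 46492 assembled transcripts, and these 39 matched 16 Arabidopsis loci.

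The hot plants had 43 °C days and 30 °C nights, and the cool plants 23 °C days and 18 °C nights, each group in a growth chamber of its own, so that chamber and temperature cannot be told apart. Both groups were leaf samples at 8 weeks with a 16-hour photoperiod, and the labels give the hot leaves an 18:3 and the cool leaves a 16:3 lipid phenotype. Each temperature had 4 libraries, called biological replicates by the series' design text, and the table analysed holds 1 value per transcript and temperature. The unit is FPKM, in which fragments are counted per length of transcript and relative to the size of the library, and the values were taken as the authors' means over the 4 libraries, so no spread between libraries stands beside them. In what follows, rose and fell describe transcripts with an adjusted p below 0.05 in the authors' deposited table, rose meaning higher at 43 °C, and the other transcripts did not pass.

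In plants the family has long been divided by membrane and sequence. Plasma membrane intrinsic proteins (PIP) carry water into and out of the cell and fall into PIP1, whose members often reach the membrane only together with a PIP2, and PIP2, the more active water channels. Tonoplast intrinsic proteins (TIP) sit in the membrane of the vacuole. Nodulin-26-like intrinsic proteins (NIP) pass solutes such as boric acid, glycerol or arsenite, and small basic intrinsic proteins (SIP) lie in the endoplasmic reticulum. In leaves, aquaporins contribute to the path of water from the veins to the evaporating cell walls, and some PIPs are also permeable to carbon dioxide.

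Of the 35 aquaporin loci of Arabidopsis, 16 were best matches of a member. They are named below by a symbol that the table lists for them: PIP1B (PIP1;2), PIP1C (PIP1;3), PIP1E (PIP1;4) and PIP1D (PIP1;5) among PIP1, PIP2B (PIP2;2), PIP2F (PIP2;4), PIP2D (PIP2;5) and PIP3 (PIP2;7) among PIP2, GAMMA-TIP3 (TIP1;3) and TIP4;1 among TIP, NLM2 (NIP1;2), NIP5;1, NIP6 (NIP6;1) and NIP7;1 among NIP, and SIP1A (SIP1;1) and SIP2 (SIP2;1) among SIP. A best match names the nearest Arabidopsis protein and does not show that the genes are orthologs. No locus of the other 19 was a best match of a member. One of these 19, TIP2;1, lies just outside the rule because its description reads "integral protein". Its single transcript is not counted with the members. It had 136 FPKM at 43 °C, against 71.6 at 23 °C, and rose (log2 change 0.91, adjusted p = 8.69e-30 by the authors' deposited table).

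The summed aquaporin level was close at the 2 temperatures, while single members differed in both directions. All members summed to 2742 FPKM at 43 °C and 2680 at 23 °C. The log2 ratio of these sums was 0.03, or -0.065 after centring all log2 changes on their median and 0.29 with equal totals of the table, a scaling described below. Among the members, 8 rose, 8 fell and 23 did not pass. The transcripts of PIP2F and PIP2D rose most among members of at least 1 FPKM on average, and that of TIP4;1 fell most. By comparison, 38.5% of all transcripts in the table passed, 20.7% as higher and 17.8% as lower, and 16 of 39 members is near that share. The median log2 change in the authors' deposited table was -0.23 over the members and 0.10 over all transcripts. Of the members that passed, 6 were higher and 2 were lower by 2-fold or more, as were 25.7% of all transcripts in either direction. The 6 were 2 NIP7;1 transcripts of very low level, 2 PIP1E transcripts with weak matches, PIP2F and PIP2D. PIP2F and PIP2D are not shown to be separate genes, as described below.

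**Figure D1:**
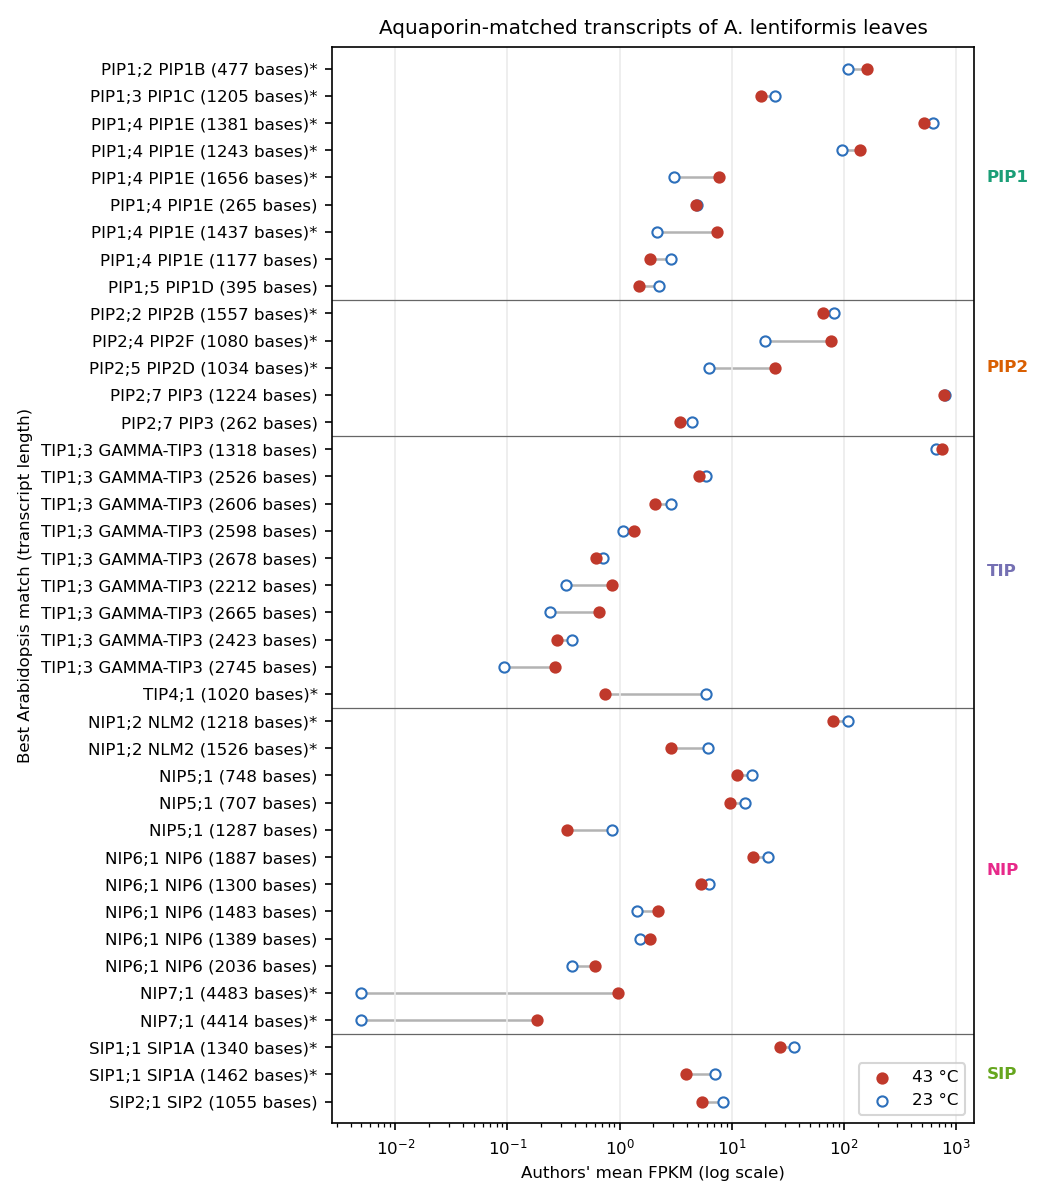
The authors' mean FPKM of each of the 39 aquaporin-matched transcripts on a log axis, with filled red points for 43 °C, open blue points for 23 °C, rows grouped by subfamily and an asterisk where the authors' adjusted p was below 0.05. The 2 points of the most abundant transcripts nearly coincide, and the PIP2;4, PIP2;5, TIP4;1 and NIP7;1 matches have the widest gaps among the transcripts that passed.

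A scaling of the table bears on every small difference that follows. Weighted by transcript length, the FPKM of all transcripts summed to 909555 at 43 °C and 1084419 at 23 °C. Setting both to 1 total adds 0.25 to each log2 change, and approximate calls were then made with a standard error worked back from each p-value under a normal distribution. With equal totals 10 members were higher and 2 were lower at 43 °C, against 27.9% higher and 12.9% lower over all transcripts. The members that still fell were TIP4;1 and the less abundant NLM2 transcript. As shares of these length-weighted totals, the members made up 0.376% at 43 °C and 0.313% at 23 °C.

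Transcript abundance was concentrated in a few members. The 4 most abundant, which matched PIP3, GAMMA-TIP3, PIP1E and PIP1B, held 80.7% of the summed aquaporin FPKM at 43 °C and 81.6% at 23 °C. By level in the whole table, PIP3 ranked 68 at 43 °C and 93 at 23 °C, GAMMA-TIP3 70 and 104, and the main PIP1E transcript 99 and 111. At the other end, 9 members had a mean under 1 FPKM. No member was listed at 0.

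**Figure D2:**
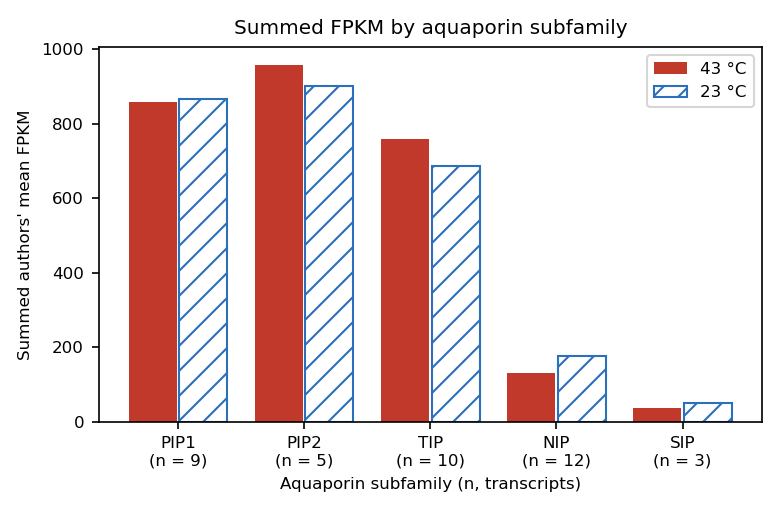
The summed authors' mean FPKM of the members of each subfamily, with filled red bars for 43 °C left of hatched blue bars for 23 °C. PIP1, PIP2 and TIP stand at 759 to 957 FPKM at 43 °C, and NIP and SIP at 130.0 and 36.5 FPKM.

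Among PIP1 transcripts, 4 rose, 2 fell and 3 did not pass. Their sum was 859 FPKM at 43 °C and 866 at 23 °C. PIP1E had 6 transcripts, which did not move together. Its main transcript had 519.5 FPKM at 43 °C, against 621 at 23 °C, and fell (log2 change -0.26, adjusted p = 0.00115 by the authors' deposited table). With equal totals this change was -0.01 and no longer passed. The second PIP1E transcript had 139 FPKM at 43 °C, against 96.4 at 23 °C, and rose (log2 change 0.52, adjusted p = 2.06e-10 by the authors' deposited table). PIP1B, whose Arabidopsis counterpart has been studied for water and carbon dioxide transport, was represented by 1 short transcript of 477 bases. It rose to 159 FPKM at 43 °C, against 109 at 23 °C (log2 change 0.54, adjusted p = 1.23e-08 by the authors' deposited table). PIP1C had 18.2 FPKM at 43 °C and 24.5 at 23 °C and fell (log2 change -0.44, adjusted p = 0.0138 by the authors' deposited table), a call that equal totals ended at -0.19. The PIP1C match had an E value of 4.4e-26, against 2.3e-179 for the main PIP1E transcript.

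Lower in abundance, 2 further PIP1E transcripts rose. The first had 7.625 FPKM at 43 °C against 3.03 at 23 °C, and the second 7.46 FPKM at 43 °C against 2.17 at 23 °C. Their log2 changes in the authors' deposited table were 1.33 and 1.76 (adjusted p = 6.39e-07 and 1.63e-07). Both rest on weak matches, with E values of 4e-13 and 6.7e-14 over transcripts of 1656 and 1437 bases. PIP1D was represented by a transcript of 395 bases, which did not pass and had at most 2.225 FPKM. Its match was the weakest of all members, with an E value of 3.2e-08. The remaining 2 PIP1E transcripts had at most 4.94 FPKM and did not pass. Their names carry the same component number as the PIP1D transcript and a short PIP3 transcript described below. Pieces of 1 gene would be named in this way too, so PIP1D is not shown to be a separate gene. Summed over its 6 transcripts, PIP1E had 679.9 FPKM at 43 °C and 729.99 at 23 °C.

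The PIP2 group held both the most abundant member and the clearest rise. PIP3 had 788 FPKM at 43 °C and 789.7 at 23 °C and did not pass (log2 change -0.01, adjusted p = 0.949 by the authors' deposited table). The approximate 95% interval of this change ran from -0.16 to 0.14 at the deposited scaling. It was worked back from the deposited p-value, and whether that rests on spread between separate plants is not stated. The interval therefore sets no limit on differences between plants. With equal totals the change became 0.24 and passed. PIP2B had 65.6 FPKM at 43 °C and 81.2 at 23 °C and fell (log2 change -0.31, adjusted p = 0.00648 by the authors' deposited table). With equal totals it stood at -0.06 and did not pass. A short PIP3 transcript of 262 bases did not pass, with 3.46 FPKM at 43 °C and 4.425 at 23 °C. In all, 2 PIP2 transcripts rose, 1 fell and 2 did not pass. The summed PIP2 level was 957 FPKM at 43 °C and 901 at 23 °C.

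PIP2F rose to 76.2 FPKM at 43 °C, against 19.7 at 23 °C. Its log2 change in the authors' deposited table was 1.94 (adjusted p = 4.93e-77), and its rank by level in the table was 957 at 43 °C and 4854 at 23 °C. PIP2D rose to 24.2 FPKM at 43 °C, against 6.265 at 23 °C (log2 change 1.95, adjusted p = 2.47e-27 by the authors' deposited table). In Arabidopsis both are plasma membrane water channels, PIP2F (PIP2;4) being known mainly from roots. The FPKM of PIP2D was 0.318 of that of PIP2F at either temperature, and the names of both transcripts carry the same component number. Separate pieces of 1 gene, or 2 copies that share reads, would be named in this way too, so the pair is not counted here as 2 separate genes that moved alike.

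**Figure D3:**
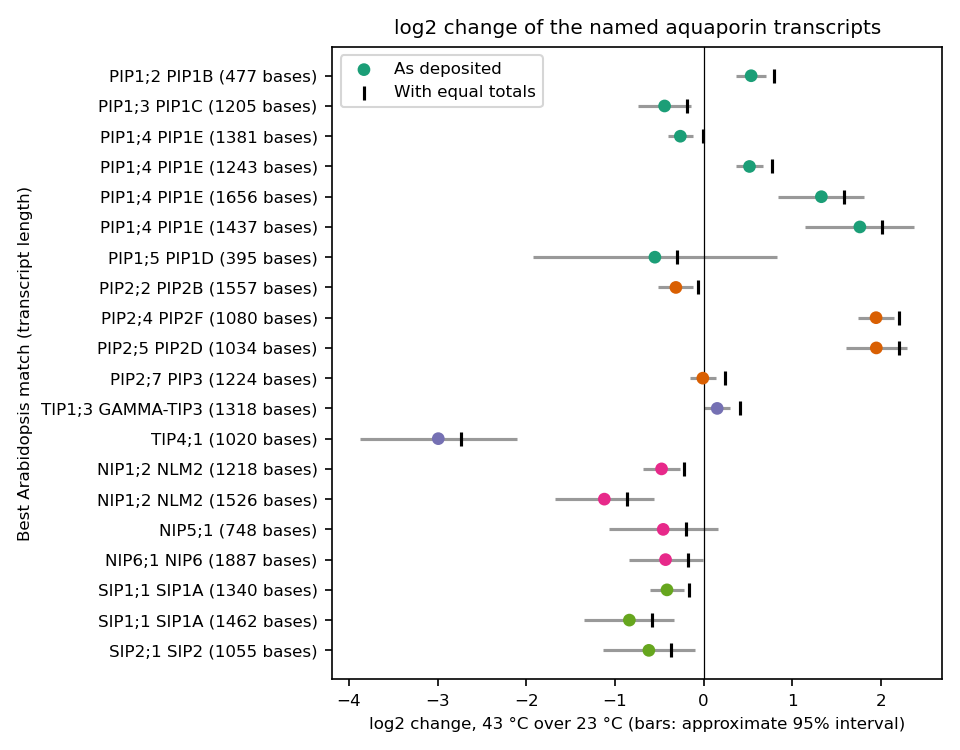
The log2 change of 43 °C over 23 °C for 20 of the 21 named aquaporin transcripts (NIP7;1, at 7.47, is left out for its scale), with points as deposited and coloured by subfamily, grey bars for an approximate 95% interval derived from the authors' p-value, and black ticks for the change with equal totals. The PIP2;4 and PIP2;5 matches lie near 1.95 and TIP4;1 near -2.99, whereas the PIP1;4 main transcript, the PIP2;2 match and the PIP2;7 match lie between -0.31 and -0.01.

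The assembly placed 5 PIP members, of both PIP groups, in 1 component. They were PIP3, the 2 most abundant PIP1E transcripts, PIP1B and PIP2B. Together they had 1671 FPKM at 43 °C and 1697 at 23 °C, a log2 ratio of -0.02. Within the component 2 rose and 2 fell, and PIP3 did not pass. Related transcripts in 1 component can share reads, so the opposite directions of the PIP1E variants and PIP1B against PIP2B are uncertain as changes of separate genes.

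Among the tonoplast members, which do not include TIP2;1, GAMMA-TIP3 carried nearly the whole level. Its main transcript had 747 FPKM at 43 °C and 669 at 23 °C. It did not pass, at a log2 change of 0.15 (unadjusted p = 0.0443 by the authors' deposited table). The approximate 95% interval of this change ran from 0.0039 to 0.30. With equal totals the change was 0.41 and passed. The other 8 GAMMA-TIP3 transcripts, of 2212 to 2745 bases, had at most 5.905 FPKM, and none of them passed. In Arabidopsis the TIP1 proteins are water channels of the vacuolar membrane, and TIP1;3 itself is known from pollen.

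TIP4;1 was the member that fell most. It had 0.7475 FPKM at 43 °C, against 5.95 at 23 °C (log2 change -2.99, adjusted p = 3.68e-10 by the authors' deposited table). The fall also passed with equal totals, at -2.74, and with a pseudocount of 1 FPKM its size was -1.99. In Arabidopsis TIP4;1 is a vacuolar channel known for urea transport in yeast assays. The TIP members together summed to 759 FPKM at 43 °C and 686 at 23 °C, with 0 higher, 1 lower and 9 not passing, while 2 TIP members had an unadjusted p below 0.05.

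**Figure D4:**
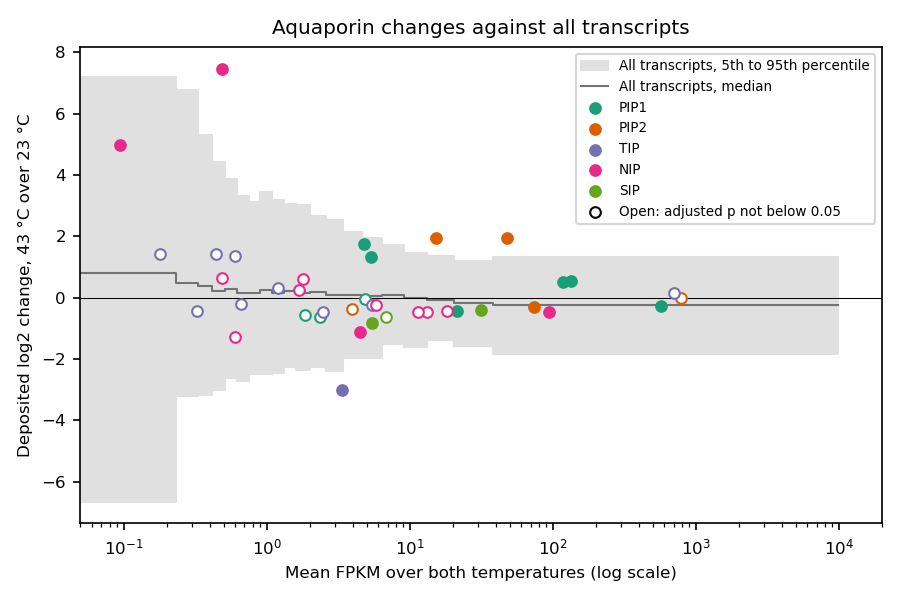
The deposited log2 change of each member against its mean FPKM over both temperatures, filled where the adjusted p was below 0.05, over a grey band from the 5th to the 95th percentile of all transcripts in 20 bins of abundance. The PIP2;4, PIP2;5 and TIP4;1 matches and the longer NIP7;1 match, 4 of 39 members, lie outside the band. By construction the band holds the central 90% of all transcripts in each bin, and 4 of 39 is near the remaining share.

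Among 12 NIP transcripts, 2 rose, 2 fell and 8 did not pass. Summed, the NIP group was lower at 43 °C, with 130.0 FPKM against 176 FPKM at 23 °C. Most of this gap lay in NLM2, a channel whose Arabidopsis counterpart passes arsenite and glycerol and carries aluminium as malate complex. The main NLM2 transcript had 79.4 FPKM at 43 °C, against 109.7 at 23 °C, and fell (log2 change -0.47, adjusted p = 4.41e-05 by the authors' deposited table). With equal totals the change was -0.22 and did not pass. A second NLM2 transcript fell to 2.86 FPKM at 43 °C, against 6.20 at 23 °C (log2 change -1.12, adjusted p = 3.70e-04 by the authors' deposited table), and this also passed with equal totals.

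NIP6 and NIP5;1, both boric acid channels, did not pass. NIP6, which in Arabidopsis directs boron to young leaves, had 15.6 FPKM at 43 °C and 20.9 at 23 °C in its main transcript (log2 change -0.43, adjusted p = 0.0981 by the authors' deposited table), and its other 4 transcripts did not pass either. NIP5;1, the boron uptake channel of Arabidopsis roots, had 11.1 FPKM at 43 °C and 15.2 at 23 °C in its main transcript. Its log2 change of -0.46 (adjusted p = 0.260 by the authors' deposited table) had an approximate 95% interval from -1.07 to 0.16. All 3 NIP5;1 transcripts had a negative log2 change, whereas 3 of the 5 NIP6 transcripts had a positive one.

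NIP7;1, a boric acid channel known in Arabidopsis from anthers, had the highest deposited log2 changes of all members, at very low levels. Its transcripts of 4483 and 4414 bases had 0.97 and 0.1825 FPKM at 43 °C, against 0.005 FPKM each at 23 °C. Both rose, with log2 changes of 7.47 and 4.99 in the authors' deposited table (adjusted p = 7.35e-15 and 0.0013). The 23 °C value is 2 steps of 0.0025 FPKM, the unit of which all levels in the table are multiples. With a pseudocount of 1 FPKM the change of the longer transcript was 0.97, below the 1.90 of PIP2F and the 1.79 of PIP2D. The component of these 2 transcripts held 7 others that matched serine carboxypeptidase-like proteins, so their reads need not come from an aquaporin. The main NIP5;1 transcript likewise shared its component with 7 transcripts of other families, and 5 GAMMA-TIP3 transcripts of low level shared theirs with 1.

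Of the 3 SIP transcripts 2 fell and 1 did not pass, and the group summed to 36.5 FPKM at 43 °C and 51.3 at 23 °C. SIP1A fell to 27.1 FPKM at 43 °C, against 35.9 at 23 °C, in its main transcript (log2 change -0.41, adjusted p = 1.42e-04 by the authors' deposited table). Its second transcript fell to 3.94 FPKM at 43 °C, against 7.03 at 23 °C (log2 change -0.84, adjusted p = 0.00462 by the authors' deposited table). With equal totals neither passed (log2 changes -0.16 and -0.58). SIP2 had 5.435 FPKM at 43 °C and 8.30 at 23 °C and just missed the threshold, at a log2 change of -0.62 (adjusted p = 0.0518 by the authors' deposited table).

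Plant aquaporins are controlled by delivery to the membrane, phosphorylation and degradation, and 17 Arabidopsis genes that act on or beside aquaporins were looked up. Matches existed for 12 of them, and by the most abundant transcript of each, 1 rose, 7 fell and 4 did not pass. Over all matched loci, 26.9% were higher and 30.9% were lower when counted in the same way. The median log2 change of the 12 was -0.41 in the authors' deposited table. With equal totals 2 were higher and 5 lower. The equal-totals shares were counted only over all transcripts, at 27.9% higher and 12.9% lower, and not per matched locus.

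In delivery, the syntaxin SYP121, which guides PIP2 channels to the plasma membrane, fell to 2.86 FPKM at 43 °C, against 8.795 at 23 °C. Its partner VAMP721 fell to 146 FPKM at 43 °C, against 215 at 23 °C, and SYP71 to 32.3 FPKM at 43 °C, against 45.7 at 23 °C. SYP61 did not pass, with 8.07 FPKM at 43 °C and 9.325 at 23 °C. In degradation, the ubiquitin ligase RMA1 fell to 12.9 FPKM at 43 °C, against 41.7 at 23 °C (log2 change -1.70 by the authors' deposited table). TSPO, a membrane protein that takes PIP3 (PIP2;7) to degradation in Arabidopsis, fell to 0.11 FPKM at 43 °C, against 1.03 at 23 °C. UBC32, a ubiquitin-conjugating enzyme, fell to 69.9 FPKM at 43 °C, against 89.5 at 23 °C, and no longer passed with equal totals.

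Of the kinases looked up, some phosphorylate PIP2 proteins in Arabidopsis, but this is not claimed for HCR1. The most abundant OST1 transcript rose to 43.6 FPKM at 43 °C, against 30.9 at 23 °C. Another 2 of its 4 transcripts fell, and the sum over OST1 was 86.8 FPKM at 43 °C and 87.1 at 23 °C. BAK1 fell to 13.05 FPKM at 43 °C, against 17.7 at 23 °C, a call that ended with equal totals. SIRK1 did not pass at 7.05 FPKM at 43 °C and 6.39 at 23 °C, and passed as higher with equal totals. The kinases CPK3 and HCR1 did not pass either, with 7.92 and 10.3 FPKM at 43 °C against 9.455 and 11.2 FPKM at 23 °C. The second HCR1 transcript fell, and both together summed to 13.4 FPKM at 43 °C and 20.4 at 23 °C.

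Boron exporters work beside the boric acid channels, loading boron into the xylem or out of the cell. Of 7 BOR genes looked up, 5 had a match, and by the most abundant transcript of each 0 rose, 3 fell and 2 did not pass, beside the 26.9% higher and 30.9% lower over all matched loci. Of all 13 BOR transcripts, 1 rose and 7 fell. BOR4 fell most, to 5.71 FPKM at 43 °C against 26.05 at 23 °C (log2 change -2.20, adjusted p = 1.24e-103 by the authors' deposited table). BOR1 fell to 10.5 FPKM at 43 °C, against 21.2 at 23 °C. The most abundant BOR2 transcript fell to 17.0 FPKM at 43 °C, against 23.5 at 23 °C, and did not pass with equal totals. Of the 6 BOR2 transcripts 1 rose and 4 fell, and they summed to 41.8 FPKM at 43 °C and 92.4 at 23 °C (log2 ratio -1.14). BOR5 and BOR6 did not pass, with 5.06 and 0.6025 FPKM at 43 °C against 6.82 and 0.3275 FPKM at 23 °C. The BOR5 transcript and the most abundant BOR4 transcript lay in 1 component and can share reads. The fall of BOR4 beside BOR5 is therefore uncertain as a change of separate genes.

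**Figure D5:**
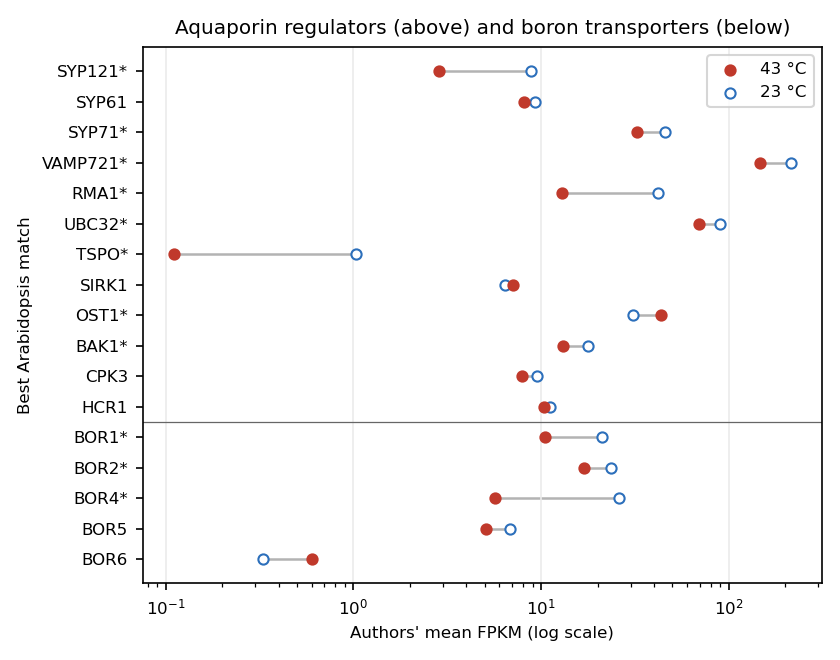
The authors' mean FPKM of the most abundant transcript matched to each aquaporin regulator (upper 12 rows) and boron transporter (lower 5 rows) on a log axis, with filled red points for 43 °C, open blue points for 23 °C and an asterisk where the adjusted p was below 0.05. SYP121, RMA1, TSPO and BOR4 show the widest gaps, with the 43 °C point on the left.

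Markers of leaf tissues also moved with temperature. In bulk leaf RNA, fewer cells of a type and less RNA per cell cannot be told apart. Marker genes were counted by their most abundant transcript, and over all matched loci 26.9% were higher and 30.9% lower in that count. The Rubisco small subunit gene RBCS1A, which C4 leaves express mainly in the bundle sheath, had 3154 FPKM at 43 °C and 3882 at 23 °C and fell, a call that ended with equal totals. The light-harvesting gene LHCB1.3 fell to 824 FPKM at 43 °C, against 5298 at 23 °C, in its most abundant transcript. These 2 genes had been listed together as mesophyll markers, but in C4 leaves that list mixes cell types. All their transcripts summed to 10211 FPKM at 43 °C and 20700 at 23 °C. Of this, RBCS1A held 3197 FPKM at 43 °C and 3951 at 23 °C, and LHCB1.3 held 7014 and 16749. Of 7 matched vascular genes 1 rose, 4 fell and 2 did not pass. The phloem sucrose transporter SUC2 (55.3 FPKM at 43 °C, 207 FPKM at 23 °C), SWEET12, APL and XCP1 fell. IRX3 rose, to 6.395 FPKM at 43 °C against 3.62 at 23 °C, and ATHB8 and XCP2 did not pass. The list summed to 231 FPKM at 43 °C and 568 at 23 °C. Most of that came from SUC2 and SWEET12, the latter with 106 FPKM at 43 °C and 248 at 23 °C over its transcripts. All 3 genes of the C4 list fell (2176 FPKM at 43 °C and 6727 at 23 °C in sum). Most of this sum was PPDK, with 1997 FPKM at 43 °C and 6322 at 23 °C. The PPC3 match had only 18.5 FPKM at 43 °C and 36.5 at 23 °C. A best match does not show that it is the form used in C4 photosynthesis. Of 3 matched epidermal genes 2 rose, and the list summed to 238 FPKM at 43 °C and 119 at 23 °C. PDF1 rose to 65.9 FPKM at 43 °C, against 0.80 at 23 °C, and FDH to 70.9 FPKM at 43 °C, against 41.4 at 23 °C. CER6 did not pass, with 29.1 FPKM at 43 °C and 32.3 at 23 °C. Of 4 guard cell genes 1 rose and 3 did not pass, with sums of 23.3 FPKM at 43 °C and 27.0 at 23 °C. KAT1 rose (log2 change 1.26 by the authors' deposited table). FAMA, MYB60 and SLAC1 did not pass, at log2 changes of -0.66, -0.64 and -0.41, though another SLAC1 transcript rose. No marker was listed at 0, and the part of tissue makeup in the aquaporin values was not tested.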

How the data were processed

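Leaf RNA-seq libraries, 4 per temperature, were grouped by sample title. The submitters' processing notes name CASAVA 1.8.2 and Bowtie2 without saying what each did. No assembler, counting tool or test is given in the sources used here. Per the file headers, the deposited table holds FPKM, a log2 fold change, p-values with their FDR, and a best BLASTx hit among TAIR10 proteins. All FPKM values were multiples of 0.0025 (tolerance 1e-06) and were taken as means over the 4 libraries. The deposited FDR equalled a Benjamini-Hochberg adjustment over all 46492 transcripts to within 3.2e-07. Whether those p-values rest on the spread between separate plants is not stated. Depth per library is unknown, and since the table holds means, the test on single libraries that had been planned was not run.

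Members, gene lists and rules were chosen with earlier results of these data known. Every matched locus was named by its most abundant transcript, with the most abundant and most changed members. A further transcript was named where it had at least 25% of the level of the main one and a different call. Subfamilies followed the matched locus. Approximate intervals used a standard error worked back from each p-value under a normal distribution, which may be poor at low levels. The arithmetic of that step was tested on simulated data with normal errors, which does not test how well a normal distribution describes these p-values. Python 3.11.15, pandas 2.3.3 and scipy 1.17.1 were used.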

Additional observations from a re-analysis of the deposited data

How the results depend on the processing

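No paired analysis was possible because the table holds 1 mean per temperature and no values per library, and for the same reason leaving out each library in turn was not run. FPKM summed per locus have no p and gave no count of calls. Calls rest on the authors' p-values, which pseudocounts cannot change, and no member was listed at 0, so neither alternative bears on the calls. Pseudocounts of 0.1 and 1 FPKM did lower the log2 change of NIP7;1, to 3.35 and 0.97 from 7.47 as deposited, and brought that of TIP4;1 to -2.84 and -1.99 from -2.99. A length of at least 500 bases changed no count of calls by over 1.5 times. Counts are of transcripts higher or lower at 43 °C, and a sum was taken to have moved beyond 1.5 times.

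At a mean of at least 5 FPKM 5 of 19 members were higher and 7 lower, and NIP had 0 higher and 1 lower and TIP 0 lower. Of all transcripts at that level, 3514 of 13422 were higher and 4726 lower by the deposited adjusted p, by which 6 of the 19 members were lower. At least 1 FPKM left NIP with 0 higher. The most abundant transcript per locus gave 4 higher and 7 lower members of 16. Of these, PIP1 had 1 higher, and NIP 1 higher and 1 lower. Over all matched loci counted in this way, 26.9% were higher and 30.9% lower by the deposited adjusted p, by which 6 of the 16 members were lower. Equal totals gave 2 lower members, 0 of PIP1, 0 of PIP2, 1 of NIP and 0 of SIP, and 1 higher of TIP. E values of at most 1e-30 left PIP1 with 2 higher and 1 lower, and an adjusted p below 0.01 left it with 1 lower. Leaving out members that share a component with another family, chosen after seeing the data, left NIP with 0 higher.

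Median centring turned the log2 ratio of the summed FPKM to -0.065 over all members and to -0.0098 for PIP2. Equal totals turned that of PIP1 to 0.24 and the log2 change of PIP3 to 0.24. Among the named transcripts 6 no longer passed and 1 newly passed with equal totals besides that reversal, and 2 newly passed after centring, NIP6 and SIP2, both as lower. The reason for the unequal totals was not tested. Depth per library is unknown, and the authors' p-values are the sole guide to how far it limits the low members.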
